A study of Arabidopsis thaliana with 35 samples.

Results

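CBF1, CBF2 and CBF3 are 3 neighbouring genes of Arabidopsis thaliana whose transcripts and chromatin marks were followed through a vernalization series. They were picked by their gene IDs, which are AT4G25490 for CBF1 (also called DREB1B), AT4G25470 for CBF2 (DREB1C) and AT4G25480 for CBF3 (DREB1A). All 3 are among the 18779 genes of the deposited RNA table, and their cluster on chromosome 4 was searched for peaks in 18 deposited peak lists. The plants were seedlings of Col-0 carrying a functional FRI allele, kept at 22 °C with 16 h of light outside the cold, and every group shares this background and growth condition. RNA came from 7 groups. One group saw no cold (NV). A further 5 were taken from the cold, after 1 h or after 1 d, 10 d, 20 d or 40 d. The last, T10, had 10 d of normal growth once its 40 d of cold were over. Chromatin immunoprecipitation of H3K4me3, H3K36me3 and H3K27me3 was done in NV, 40 d and T10 seedlings. Each RNA group and each mark at each time had 2 libraries. The cold temperature, the age of the seedlings and the hour of harvest are not given in the sources used here, so cold, age and development cannot be told apart.

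CBF proteins are AP2/ERF transcription activators that bind the CRT/DRE element in the promoters of cold-regulated (COR) genes. In Arabidopsis leaves their transcripts are known to appear soon after a shift to low temperature and to be gated by the circadian clock, and their targets encode proteins that protect cells from freezing. The bHLH factor ICE1 and the CAMTA factors are known activators of CBF genes, while MYB15 and several PIF factors are known repressors. H3K4me3 is a mark of active or activatable promoters, H3K36me3 of transcribed gene bodies, and H3K27me3 of genes repressed by Polycomb.

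The deposited RNA value of a gene is the mean of the normalised read counts of 2 libraries. These means were separated into whole reads per library, and the libraries of a group are named deeper or shallower by their size, with 3173245 to 21492061 separated reads per library. The libraries of NV and 1 h did not sort by group. Across all genes the deeper NV library correlated better with the shallower 1 h library (r = 0.973) and the shallower NV library with the deeper 1 h library (r = 0.970) than the pair within NV (r = 0.952) or the pair within 1 h (r = 0.925). Whether a library of NV and a library of 1 h carry exchanged labels, or pair by replicate or batch, was not tested. The deposited means carry no replicate numbers, so the fit has no term for such a pairing. Either doubt touches every comparison with NV or 1 h. The comparisons of 10 d and 40 d with 1 d, of 20 d with 10 d, of 40 d with 20 d and of T10 with 40 d use neither group. Summed leaf markers (5 of 6 listed in the table) split the same way, at 4499 in the deeper and 8317 in the shallower 1 h library against 7445 in the deeper and 4886 in the shallower NV library. By contrast, the 3 CBF genes sorted by group, with both 1 h libraries above both NV libraries, as was the case for 11.9% of all genes. CBF2 had 10.6 and 87.5 normalised counts in the deeper and shallower 1 h library against 0.804 and 0.382 in NV. Over all 14 libraries the leaf sum ranged from 3789 to 8317, while 0 of 4 floral organ markers were listed. Root markers (6 of 6 listed) changed with the cold groups. Their sum was 35.3 and 28.2 in NV, 49.1 and 41.5 at 1 h, 60.02 and 54.1 at 1 d, 17.0 and 20.6 at 10 d, 14.4 and 11.997 at 20 d, 2.45 and 2.97 at 40 d and 9.65 and 10.1 at T10. Against NV 3 of 6 rose at 1 d, 1 fell at 10 d, 3 fell at 20 d, 4 fell at 40 d (median log2 change -3.56) and 4 fell at T10 (-1.69). Of all genes 13.8% rose and 12.2% fell at 1 d. The share that fell was 14.5% at 10 d, 14% at 20 d, 18.3% at 40 d and 10.7% at T10. The 1 of 6 at 10 d thus lies near the background. Of 4 seed markers 1 was listed, and it fell at every time from 1 d on. The part of root or seed RNA in the changes given here was not tested. In whole seedlings, fewer cells that express a gene and less RNA per cell cannot be told apart.

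Without cold, all 3 transcripts were near the bottom of the measured range. CBF2 had 0.804 normalised counts in the deeper NV library and 0.382 in the shallower. CBF3 had 0.355 and 0.411, and CBF1 had 0.189 and 0.118, which stand for 8 and 4 reads. The 3 paralogues are close in sequence, and how the authors' counting treated reads that fit more than one of them is not given in the sources used here, so the division among them is uncertain.

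After 1 h of cold the 3 CBF transcripts were among the 5 highest fitted changes of 18766 genes tested, none passed the test, and their 2 libraries lay far apart. CBF2 had 10.6 normalised counts in the deeper and 87.5 in the shallower 1 h library. CBF1 had 1.97 and 18.9, and CBF3 had 5.53 and 17.2. Each 1 h library lay above both NV libraries for all 3 genes, and the shallower 1 h library was the higher one each time. Groups that do not overlap in this direction were found for 11.9% of all genes tested.

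The means at 1 h and in NV were 49.1 ± 54.4 and 0.593 ± 0.298 normalised counts for CBF2 (SD, n = 2 each). The fitted log2 change of CBF2 was 5.53 with a standard error of 2.06, and its adjusted p was 0.497 (limma with voom weights, Benjamini-Hochberg over all genes tested). CBF1 changed by a fitted 4.64 ± 1.87 (SE) with an adjusted p of 0.544, and CBF3 by 4.41 ± 1.18 with 0.252. At this time 0.0799% of all genes passed in the upward direction, 15 genes in all, and 0.00533% in the downward one. By fitted change CBF2 ranked 1, CBF1 ranked 4 and CBF3 ranked 5. Without the deeper 1 h library all 3 passed, with adjusted p of 0.0445 for CBF2, 0.00163 for CBF1 and 0.0143 for CBF3, against ranges of 0.0445 to 1.00, 0.00163 to 1.00 and 0.0143 to 1.00 over the 12 alternatives.

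**Figure D1:**
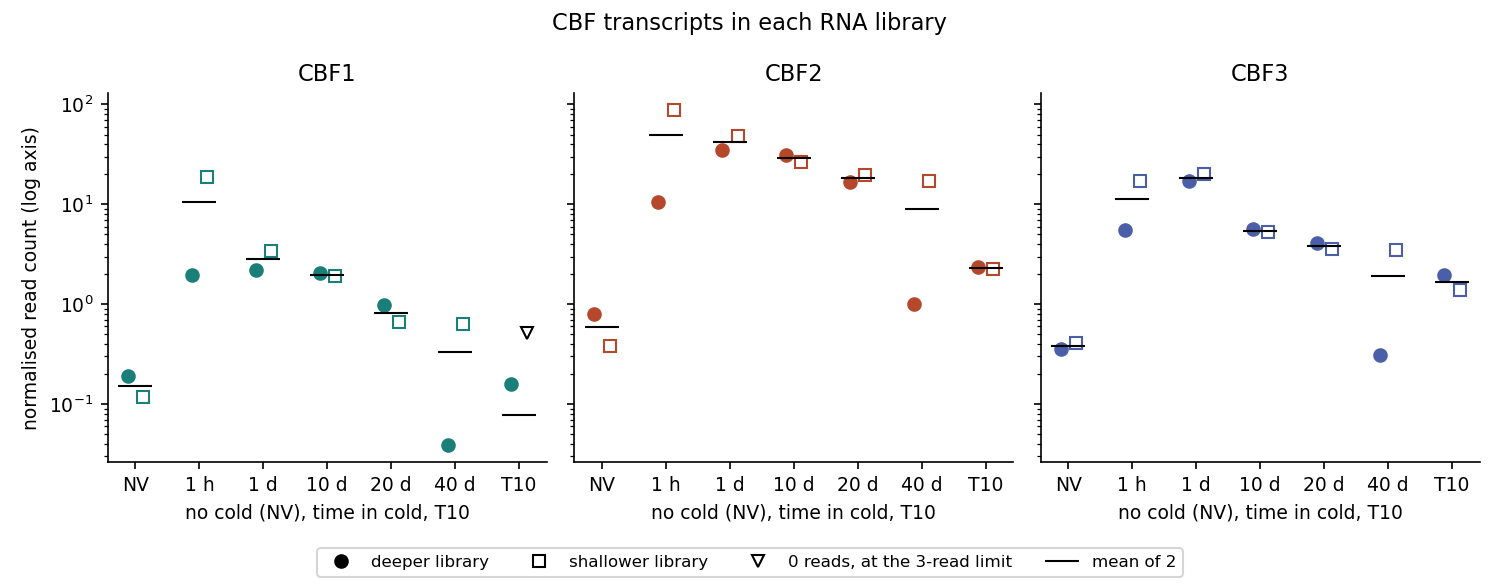
Normalised read count (log axis) of CBF1, CBF2 and CBF3 in each RNA library, by group from NV through the times in cold to T10, with filled circles for the deeper and open squares for the shallower library and a dash for their mean. The 2 libraries lie far apart at 1 h and at 40 d for all 3 genes and close together at 10 d, and the triangle marks a CBF1 count of 0 at T10, drawn at its limit of 0.520.

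After 1 d of cold the libraries lay closer together than at 1 h and CBF2 and CBF3 passed the test. CBF2 had 35.4 and 48.8 normalised counts at 1 d against 0.804 and 0.382 in NV. CBF3 had 17.1 and 19.9 at 1 d against 0.355 and 0.411 in NV. CBF1 had 2.23 and 3.43 at 1 d against 0.189 and 0.118 in NV. The log2 ratio of the shallower to the deeper 1 d library was 0.60 for CBF1, 0.46 for CBF2 and 0.22 for CBF3. The median size of this ratio over all genes compared was 0.162. No 1 d library overlapped with NV for any of the 3, which held upward for 31.8% of all genes.

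CBF2 rose by 6.14 ± 2.05 on the log2 scale (limma, SE, adjusted p 0.0440) and CBF3 by 5.56 ± 1.16 (adjusted p 0.00469), where 13.8% of all genes passed upward. CBF1 had a fitted change of 4.06 ± 1.89 and did not pass (adjusted p 0.134). The call for CBF3 held in all 12 alternatives, with adjusted p between 0.000254 and 0.0473. That for CBF2 was lost when any 1 of the 4 libraries was left out, with adjusted p of 0.0865 without the deeper 1 d library, 0.106 without the shallower 1 d library, 0.235 without the deeper library of NV and 0.0993 without the shallower one, within a range of 0.00246 to 0.235 over the alternatives. One spread was estimated per gene from all 14 libraries, so the gaps between the libraries at 1 h and 40 d enter every test of these genes.

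Between 1 h and 1 d none of the 3 transcripts passed the test, and the 2 groups overlapped for each. Fitted log2 changes at 1 d against 1 h were -0.58 ± 0.75 for CBF1 (limma, adjusted p 0.641), 0.61 ± 0.88 for CBF2 (0.680) and 1.15 ± 0.48 for CBF3 (0.123), where 9.01% of all genes passed upward and 9.07% downward. For CBF2 the mean went the other way from the fit, at 42.1 normalised counts at 1 d against 49.1 at 1 h. CBF1 fell by 2.78 without the deeper 1 h library (adjusted p 0.000197, range 0.000197 to 0.901 over the 12 alternatives), and its value was 0.48 without the shallower one. CBF3 without the shallower 1 h library rose by 1.74 (adjusted p 0.0192, range 0.0192 to 0.901 over the 12 alternatives).

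At 10 d CBF3 had fallen below its 1 d level, while CBF2 and CBF1 were lower without passing the test. At 10 d CBF3 had 5.61 and 5.28 normalised counts, against 17.1 and 19.9 at 1 d. It fell by 1.76 on the log2 scale with a standard error of 0.50 (limma, adjusted p 0.0282), where 11.1% of all genes passed downward. It was lost when any 1 of the 4 libraries was left out (adjusted p 0.0990 to 0.153). CBF2 had 31.3 and 26.7 at 10 d against 35.4 and 48.8 at 1 d, a fitted change of -0.52 ± 0.86 with an adjusted p of 0.709. CBF1 had 2.03 and 1.91 at 10 d against 2.23 and 3.43 at 1 d, with -0.48 ± 0.86 and 0.736. All 3 were below 1 d in both 10 d libraries, as were 36.7% of all genes, and 5 of 6 root markers fell (median log2 change -1.41).

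Against NV, CBF3 was still higher at 10 d, by 3.80 ± 1.18 on the log2 scale (limma, adjusted p 0.0313), where 13.2% of all genes passed upward. That call was lost without any 1 of its 4 libraries (adjusted p 0.0726 to 0.154). CBF2 had a fitted change of 5.62 ± 2.05 that just missed the threshold (adjusted p 0.0593), and CBF1 one of 3.58 ± 1.92 (adjusted p 0.184). In both 10 d libraries all 3 were above both NV libraries, as were 32.3% of all genes. When the spread was taken from only the 4 libraries compared, all 3 passed, with adjusted p of 0.0135 for CBF1 and 0.00169 for CBF2 and with ranges of 0.0135 to 0.404 and 0.00169 to 0.254 over the 12 alternatives.

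At 20 d the levels were lower again but still above NV in every library. CBF2 had 16.9 and 19.8 normalised counts, CBF3 had 4.11 and 3.58, and CBF1 had 0.971 and 0.661. No change against NV passed the test, with fitted log2 values of 4.96 ± 2.06 for CBF2 (adjusted p 0.0911), 3.30 ± 1.204 for CBF3 (0.0588) and 2.32 ± 2.05 for CBF1 (0.426), where 13.8% of all genes passed upward and 32.5% did not overlap. Both 20 d libraries lay below both 10 d libraries for all 3 genes, as they did for 28.8% of all genes. None of these steps passed the test, with fitted changes of -0.66 for CBF2, -0.50 for CBF3 and -1.26 for CBF1 and adjusted p between 0.756 and 0.854, where 0.4% of all genes passed downward.

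**Figure D2:**
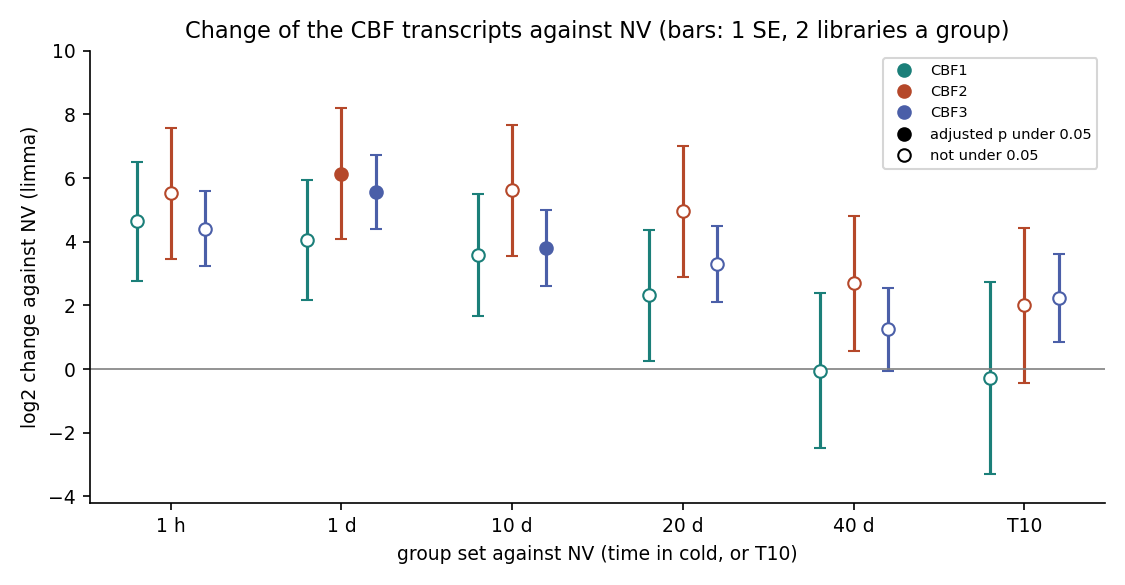
Fitted log2 change of each CBF transcript against NV (vertical axis) after 1 h to 40 d of cold and at T10, with bars of 1 standard error and filled symbols where the adjusted p was under 0.05. CBF2 and CBF3 are filled at 1 d and CBF3 at 10 d, and the values for CBF1 at 40 d and T10 lie at -0.06 and -0.28.

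At 40 d the 2 libraries gave different pictures of the CBF genes. CBF2 had 1.01 normalised counts in the deeper library and 17.1 in the shallower one, from 52 and 702 reads, a 16.9-fold gap. CBF3 had 0.311 and 3.48, from 16 and 143 reads. CBF1 had 0.0388 and 0.633, from 2 and 26 reads. The shallower library held all 3 genes close to their 20 d level, and the deeper one held CBF1 and CBF3 below both NV libraries and CBF2 above both.

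No CBF gene passed the test at 40 d against NV, with fitted log2 changes of 2.69 ± 2.12 for CBF2 (limma, adjusted p 0.347), 1.26 ± 1.303 for CBF3 (0.481) and -0.06 ± 2.44 for CBF1 (0.988), where 16.5% of all genes passed upward and 18.3% downward. For CBF1 the mean went the other way from the fit, at 0.336 normalised counts at 40 d against 0.153 in NV. CBF2 alone of the 3 did not overlap with NV, as was the case upward for 32.6% of all genes. Without the deeper 40 d library CBF2 (fitted change 4.86, adjusted p 0.0491, range over the 12 alternatives 0.0491 to 0.804) and CBF3 (3.15, adjusted p 0.0320, range 0.0320 to 0.895) passed upward. Without the shallower one the fitted change of CBF3 was -0.29 and that of CBF2 was 0.79.

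Against 20 d, CBF1 and CBF3 were lower in both 40 d libraries, as were 27.4% of all genes, and none of the 3 passed (fitted changes of -2.38, -2.26 and -2.04 for CBF1, CBF2 and CBF3, adjusted p 0.780, 0.458 and 0.338), where 0.57% of all genes passed downward. Against 1 d, a comparison added after the values were seen, CBF3 at 40 d fell by 4.30 ± 0.74 on the log2 scale (limma, adjusted p 0.00116) and CBF2 fell by 3.45 ± 1.02 (adjusted p 0.0222), and CBF1 had -4.11 ± 1.73 (adjusted p 0.0894), where 17% of all genes passed downward. All 3 were lower in both 40 d libraries than in both 1 d libraries, as were 37.9% of all genes. Of the 6 root markers 5 fell over the same interval, with a median log2 change of -4.41. The call for CBF2 was lost without the deeper 40 d library (-1.28, adjusted p 0.301) and without either 1 d library (adjusted p 0.0689 and 0.102), and ranged from 0.000385 to 0.301 over the 12 alternatives.

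The gap between the 40 d libraries set the CBF genes apart from nearly all others. Of 18209 genes compared, 3 had libraries at least as far apart as CBF2 on the log2 scale, itself included, 7 as far as CBF3 and 24 as far as CBF1, while the median gap was 0.192. Ahead of CBF2 stood ATCG00930 with 1.01 normalised counts in the deeper 40 d library and 46.2 in the other and ATMG00280 with 2.21 and 77.0, whose IDs belong to the chloroplast and the mitochondrial genome. The genes after CBF2, singled out after their values were seen, were AT3G54580, the heat shock protein gene HSP17.6A, AT1G49210 and then CBF3, and HSP17.6A went the other way with 1.24 in the deeper and 0.0487 in the shallower 40 d library. The 40 d libraries correlated at r = 0.987 across all genes, leaf markers differed by at most 0.10 on the log2 scale and root markers by -0.03 to 0.48. Among 15 other early cold transcription factors, 2 were more than 2-fold higher in the shallower library and 0 in the deeper one. With the deeper library given first, the 2 were RAV1, at 13.7 and 47.7, and RVE2, a MYB-like factor tied to the clock, at 10.0 and 37.4. ZAT6 went the other way, at 46.8 and 23.8. Over the 15 genes the log2 ratio of shallower to deeper ran from -0.97 to 1.89, with a median of -0.11. Of 14 CBF regulators and 16 CBF target genes, 0 differed by more than 2-fold in either direction. The share of all genes more than 2-fold apart at 40 d was not counted. The part of depth, of the organelle transcripts or of the hour of harvest in the CBF gap was not tested.

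**Figure D3:**
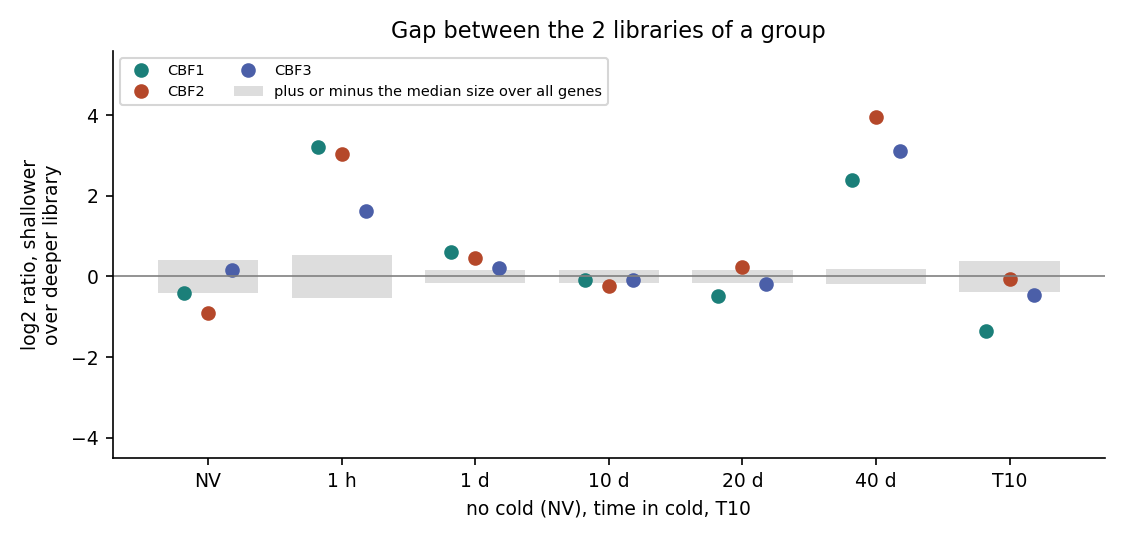
Log2 ratio of the shallower to the deeper library of each group for CBF1, CBF2 and CBF3, with a grey band reaching the median absolute ratio over all genes on either side of 0. The 3 genes stand far outside the band at 1 h and 40 d, at 2.40, 3.95 and 3.13 at 40 d against a band of 0.192, and the CBF1 points of NV and T10 rest on under 20 reads.

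At 1 h the gap was wide for many genes, with a median of 0.531 on the log2 scale. CBF1, CBF2 and CBF3 were among the widest 0.592%, 0.785% and 7.47% of genes. Of the 15 other early cold transcription factors 8 were more than 2-fold higher in the shallower 1 h library and 0 in the deeper one, and of 16 target genes 8 and 0. The share of all genes more than 2-fold apart at 1 h was not counted, so these counts have no background beside them. Leaf markers were higher in the shallower 1 h library by 0.32 to 1.24. The part of leaf RNA in the CBF gap at 1 h was not tested.

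After the return to normal growth CBF2 and CBF3 lay above NV in both libraries, at a low level, and CBF1 did not. CBF2 had 2.36 and 2.25 normalised counts at T10, from 75 and 13 reads, against 0.804 and 0.382 in NV, from 34 and 13. CBF3 had 1.95 and 1.39 at T10, from 62 and 8 reads, against 0.355 and 0.411 in NV, from 15 and 14. CBF1 had 0.157 from 5 reads in the deeper T10 library and 0 reads in the shallower one, where 3 reads would have been 0.520. Neither CBF2 (fitted log2 change 2.01 ± 2.43, limma adjusted p 0.582) nor CBF3 (2.24 ± 1.38, 0.257) nor CBF1 (-0.28 ± 3.02, 0.957) passed the test against NV. Upward, 13.7% of all genes passed and 27.6% did not overlap, and downward 10.7% passed. Against 40 d the T10 libraries overlapped for all 3 genes and none passed (adjusted p 0.535 to 0.966), with the mean of CBF3 lower at T10 and its fitted change above 0, where 10.1% of all genes passed downward and 13.3% upward and 32.6% did not overlap in each direction.

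In the order of mean levels CBF2 ran from 1 h through 1 d, 10 d, 20 d, 40 d and T10 to NV. The neighbours 1 h and 1 d, 20 d and 40 d, and 40 d and T10 overlapped, while 1 d and 10 d, 10 d and 20 d, and T10 and NV did not. CBF3 had its highest mean at 1 d, 18.5 normalised counts, followed by 11.4 at 1 h, and these 2 groups overlapped. CBF1 had its highest mean at 1 h, 10.4 normalised counts, against 2.83 at 1 d, and these also overlapped. The mean of CBF1 at T10, 0.0786, was the lowest of its 7 groups and overlapped with NV.

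The make-up of the 3 transcripts also differed between times. Divided by gene length, CBF2 made up 49.7% to 86.5% of the summed CBF value in the 14 libraries and was the most abundant of the 3 in each. CBF1 made up 12.7% and 12.4% in NV and 9.93% and 13.3% at 1 h, and 0% to 4.84% in the libraries of all later times. CBF3 made up 20.8% and 37.9% in NV, 24.4% and 10.6% at 1 h, 24.6% and 21.5% at 1 d, 10.8% to 17.5% from 10 d to 40 d, and 35.7% and 30.4% at T10. The CBF1 shares of NV and 1 h did not overlap with those of later times, but the NV shares rest on 8 and 4 reads of CBF1.

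By Pearson's r over the 14 libraries of log2(normalised count + 1), the pattern of CBF2 was closest to that of AT4G33980 (r = 0.952), a protein-coding gene, among 13130 genes compared. That gene averaged 0.675 normalised counts in NV, 12.1 at 1 h, 17.4 at 1 d, 15.8 at 10 d, 7.25 at 20 d, 3.78 at 40 d and 2.36 at T10. CBF3 came next to CBF2 (r = 0.935), and CBF2 was the gene closest to CBF3, ahead of AT4G33980 (r = 0.919) and the RING domain ligase gene RGLG3 (r = 0.915). CBF1 was less like its paralogues, at r = 0.832 with CBF2 and 0.838 with CBF3, than it was like AT4G32020 (r = 0.919), AT3G60930 (r = 0.910), which RefSeq lists as a pseudogene, and BRH1 (r = 0.896), a brassinosteroid-responsive RING-H2 gene. These values are descriptions over shared libraries, and the gaps between the libraries at 1 h and 40 d enter each of them.

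All 14 listed regulators of the CBF genes were in the table, and at 1 h of cold 0 of them passed the test in either direction, with a median log2 change of -0.11 against 0.01 over all genes. At 1 d, 3 rose and 2 fell, where 13.8% of all genes rose and 12.2% fell, so these shares of 14 lie near the background. PIF4, a repressor of CBF genes, had 3.23 and 3.49 normalised counts at 1 d against 15.4 and 15.7 in NV and fell by 2.21 ± 0.33 on the log2 scale (limma, adjusted p 0.000570). MYB15, also a repressor, had 0.05004 and 0 at 1 d against 1.75 and 0.852 in NV (adjusted p 0.0175), and PIF3, another, rose by 0.73 ± 0.18 to 12.7 and 13.7 at 1 d against 8.49 and 7.41 in NV (adjusted p 0.0126). Without either 1 d library 0 rose and 1 fell. With only the 4 libraries compared 0 rose, and a trend fit with a pseudocount of 0.5 gave 1.

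At 10 d, 3 regulators rose and 2 fell, where 13.2% of all genes rose and 14.5% fell. ICE1, the activator, had 19.5 and 20.4 at 10 d against 14.4 and 11.6 in NV (log2 change 0.62 ± 0.15, adjusted p 0.00918). At 20 d 4 rose and 2 fell, where 13.8% of all genes rose and 14% fell. At 40 d 5 rose and 0 fell, with a median log2 change of 0.45, where 16.5% of all genes rose and 18.3% fell. OST1, a kinase known to stabilise ICE1, had the smallest adjusted p at 40 d, with 11.5 and 12.1 at 40 d against 5.18 and 3.35 in NV (log2 change 1.48 ± 0.23, adjusted p 0.000492). At T10, 3 rose and 0 fell, where 13.7% of all genes rose and 10.7% fell, and among them was PIF7 with 19.5 and 14.2 at T10 against 5.98 and 7.23 in NV (adjusted p 0.000482). Several of these counts rest on single libraries or on the fit. With only the 4 libraries compared, 0 rose at 10 d and 1 each at 20 d, 40 d and T10, and 1 fell at 10 d and 1 at 20 d. With quality weights 1 rose at 10 d and 2 at 40 d, with each of the 3 trend fits 1 rose at 10 d and 3 at 40 d, and with total reads as library size 3 rose at 40 d. The 3 trend fits called 1 fall at T10, and that with a pseudocount of 2 called 1 each at 10 d and 20 d. Without either library of the cold time, 0 rose at 10 d, 1 at 20 d and 1 at 40 d. With the deeper NV library left out 2 rose at 20 d and 2 at 40 d, and 1 fell at 10 d and 1 at 20 d. Leaving out the deeper 10 d library put the count of falls there at 1, leaving out the shallower one put it at 0, and 0 fell at 20 d without either of its libraries. At T10 1 rose once its deeper library was left out.

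Among 15 other early cold transcription factors, 14 had a fitted change above 0 at 1 h, with a median of 1.03 on the log2 scale against 0.01 over all genes, and 1 rose. That gene was CRF3, a cytokinin response factor, with 14.7 and 14.2 normalised counts at 1 h against 6.22 and 3.32 in NV (log2 change 1.65 ± 0.25, limma adjusted p 0.0356). Without the deeper 1 h library 7 rose, and without the shallower NV library 0 did. The count was also 0 with total reads as library size, with quality weights, in the trend fit with a pseudocount of 0.5 and with only the 4 libraries compared. ERF5, an ethylene response factor, had 21.5 and 59.8 at 1 h against 12.3 and 11.0 in NV, with the same library the higher one as for the CBF genes.

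Later the list went separate ways, with 4 rises and 3 falls at 1 d, 3 and 5 at 10 d, 3 and 5 at 20 d, 3 and 2 at 40 d, and 1 and 0 at T10. Of all genes 13.8% rose and 12.2% fell at 1 d, 13.2% and 14.5% at 10 d, 13.8% and 14% at 20 d, 16.5% and 18.3% at 40 d, and 13.7% and 10.7% at T10. RVE2 had 88.1 and 97.7 at 1 d against 0.709 and 0.676 in NV (log2 change 7.04 ± 0.87, limma adjusted p 0.000161) and averaged 81.0 at 10 d, 47.2 at 20 d, 23.7 at 40 d and 0.857 at T10. WRKY33, a defence and stress factor, had 4.05 and 4.49 at 1 d against 22.5 and 28.2 in NV (log2 change -2.56 ± 0.21, adjusted p 1.09e-05) and 40.1 and 48.2 at T10 (0.78 ± 0.18, adjusted p 0.00966). The falls at 1 d numbered 1 without either 1 d library or without the deeper NV library. Those at 10 d numbered 2 when the shallower 10 d library or the deeper one of NV was left out and 3 when the deeper 10 d library was. Those at 20 d numbered 3 when the deeper NV library or any 1 of the 20 d pair was left out. At 40 d 1 rose and 1 fell without the deeper NV library, and 1 fell without the deeper 40 d library. At T10 0 rose without the deeper NV library, 2 rose without the deeper T10 library and 2 fell without the shallower NV library. With only the 4 libraries compared, 1 rose and 1 fell at 40 d and 0 rose and 1 fell at T10. Quality weights gave 1 rise at 40 d and 1 fall at T10, total reads as library size 1 fall at T10, the 3 trend fits 2 falls at T10, and that with a pseudocount of 2 gave 1 fall at 40 d.

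Most CBF target genes were higher than in NV from 1 d to 40 d of cold, and none passed the test at 1 h. Of 17 listed targets 16 were in the table. At 1 h 0 passed in either direction, with a median log2 change of 0.25, and 2 rose without the deeper or without the shallower 1 h library. At 1 d 13 rose and 0 fell, with a median of 4.83 against 0.00 over all genes, of which 13.8% rose. The counts were 13 and 0 at 10 d (median 3.40), 13 and 0 at 20 d (3.24) and 12 and 0 at 40 d (2.96), where 13.2%, 13.8% and 16.5% of all genes rose at 10 d, 20 d and 40 d. With total reads as library size, quality weights or only the 4 libraries compared, 1 target fell at 20 d. With the deeper NV library left out, 1 target fell at 10 d.

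COR15A, whose product stabilises chloroplast membranes during freezing, averaged 0.705 normalised counts in NV, 1.16 at 1 h, 366 at 1 d, 479 at 10 d, 606 at 20 d and 699 at 40 d. KIN1 averaged 1.08, 1.75, 45.8, 107, 259 and 349 at the same times. Both had their highest mean at 40 d. COR47, a dehydrin, averaged 599 at 1 d and 71.6 at 10 d, and GOLS3, a galactinol synthase, 147 at 1 d and 28.9 at 10 d. COR15A and KIN1 each have a near copy (COR15B, KIN2), so the division of reads between the copies is uncertain.

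At 40 d the target genes did not share the gap of the CBF genes. COR15A had 717 and 681 normalised counts in the deeper and shallower 40 d library, KIN1 had 351 and 347 and GOLS3 had 73.7 and 84.8. Over the 16 targets the log2 ratio of the shallower to the deeper library ran from -0.74 to 0.46, with a median of -0.03. For CBF2 it was 3.95.

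At T10 against 40 d, 12 targets fell and 1 rose, with a median log2 change of -2.14 against 0.02 over all genes, where 10.1% of all genes fell and 13.3% rose and 3 of 6 root markers rose. The 1 rise was lost when the deeper 40 d library or any 1 of the T10 pair was left out or total reads served as library size, while quality weights and the 4 libraries alone gave 2. COR15A had 12.2 and 10.8 at T10 against 717 and 681 at 40 d (log2 change -5.88 ± 0.27, limma adjusted p 1.16e-07). KIN1 had 0.974 and 2.08 at T10 against 351 and 347 at 40 d (-8.24 ± 0.56, adjusted p 1.63e-06). Against NV, 9 targets were higher at T10 and 0 lower, where 13.7% of all genes passed upward, and 6 to 8 were higher with 1 library left out. Of these 9, 7 were also among the 12 that passed at 40 d, and ERD14, a dehydrin gene, and FAD8, a fatty acid desaturase gene, passed at T10 and not at 40 d. FAD8 averaged 10.9 normalised counts in NV, 12.9 at 40 d and 22.8 at T10. COR47, for example, had 70.5 and 79.6 at T10 against 25.0 and 22.2 in NV (1.66 ± 0.18, adjusted p 7.09e-05). The comparisons against NV share their control libraries.

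The 3 CBF genes lie in a row on chromosome 4, in the order CBF2, CBF3, CBF1, within 7747 bp. They are 986, 1391 and 1217 bp long, and the gaps between them are 1774 and 2379 bp. The nearest annotated coding gene beyond CBF2 is ABCB28, an ABC transporter gene 1164 bp away, and beyond CBF1 it is RS40, a splicing factor gene 1501 bp away. RefSeq places noncoding genes in the gaps, AT4G07385 between CBF2 and CBF3 and AT4G07395 and AT4G03125 between CBF3 and CBF1, and 0 of these 3 are in the RNA table. The other DREB1 genes CBF4, DDF1 and DDF2 are not in it either.

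Each CBF gene carried an H3K4me3 peak of its own in all 6 H3K4me3 libraries, those of NV included. In NV replicate 1 the peaks of the authors' list, on TAIR10, were chr4:13015237-13016347 over CBF2, chr4:13018229-13019269 over CBF3 and chr4:13021818-13022767 over CBF1. The peaks were separate in every library, and none reached a neighbouring gene. Counting a gene as marked when at least 50% of its body was covered in both libraries, 3 of 3 CBF genes were marked in NV, at 40 d and at T10. The same held for 30.1%, 29.7% and 32.9% of 27444 coding genes at these times, and for 42.8%, 42.7% and 46.1% of the 3160 genes of the same length range. CBF2 was covered in full or nearly so, at 100%, 100% and 98.9% ± 1.6 (SD, n = 2 each) in NV, at 40 d and at T10. CBF1 was covered to 75.02% ± 4.3, 85.0% ± 4.1 and 76.1% ± 6.6, and CBF3 to 70.2% ± 6.5, 74.3% ± 5.6 and 73.7% ± 2.8. With 2 libraries against 2 an exact permutation test cannot go below p = 0.333, so no change in coverage was tested.

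The CBF genes carried these peaks in NV at a low transcript level. Among the 706 listed genes with an NV mean at or below that of CBF2, 22.7% were marked by H3K4me3 in NV, and 49.4% of the 89 of these in the length range of the CBF genes. The CBF genes are members of both sets. Genes absent from the RNA table, such as CBF4, DDF1 and DDF2, are in neither, so these sets do not stand for all weakly expressed genes.

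**Figure D4:**
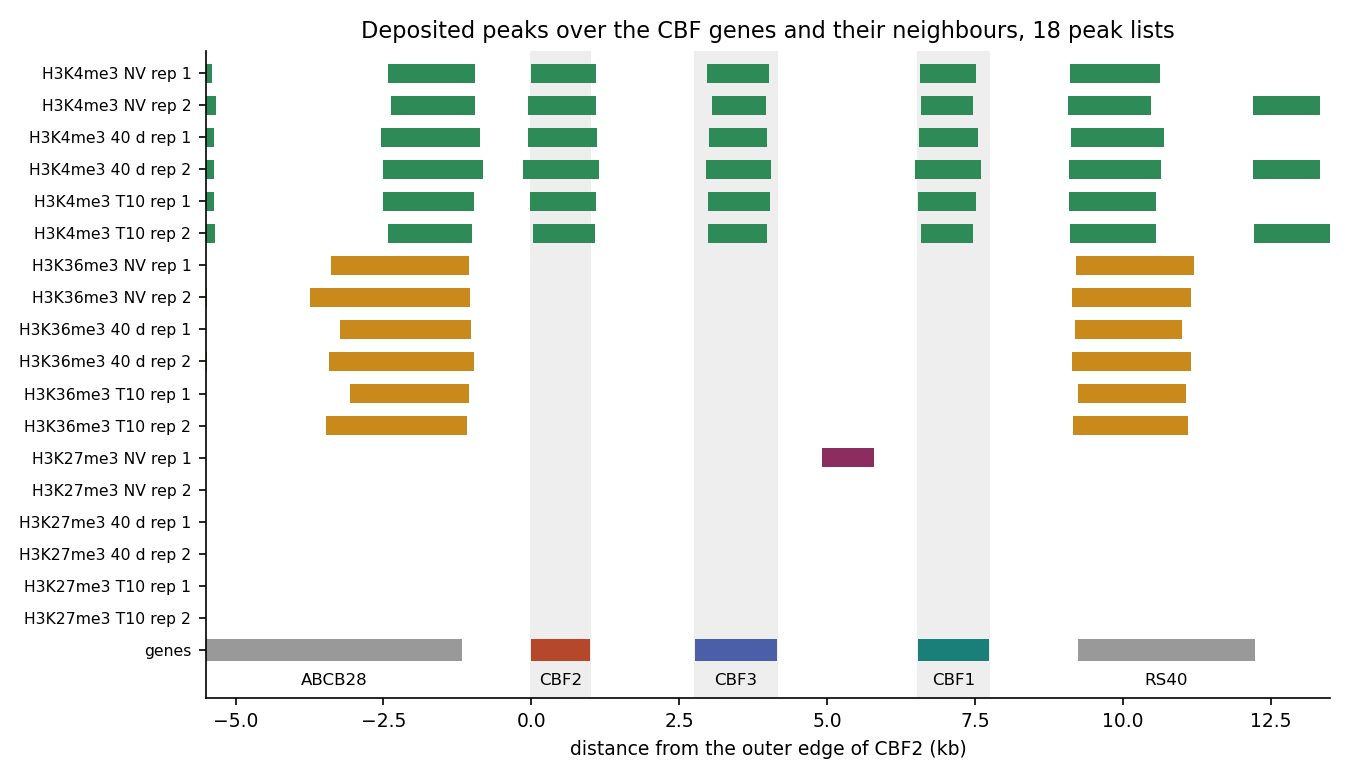
Peaks of the authors' 18 lists (rows) over CBF2, CBF3 and CBF1 and the neighbouring genes ABCB28 and RS40, in kb from the outer edge of CBF2, with the genes in the bottom row. An H3K4me3 peak lies over each CBF gene in all 6 libraries, H3K36me3 peaks lie only over the neighbours, and the single H3K27me3 peak lies between CBF3 and CBF1 in NV replicate 1.

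Within each list, the H3K4me3 peak over CBF2 had the highest fold enrichment of the 3, as the authors' caller gave it. In NV it was 3.89 and 3.53 over CBF2, 3.53 and 2.94 over CBF3 and 3.12 and 2.70 over CBF1 in replicates 1 and 2. At 40 d it was 3.86 and 5.19 over CBF2, 2.79 and 3.36 over CBF3 and 3.11 and 4.24 over CBF1. At T10 it was 3.84 and 4.09 over CBF2, 3.52 and 3.53 over CBF3 and 3.08 and 2.90 over CBF1. CBF3 stood above CBF1 in both NV and both T10 lists and below it in both 40 d lists. The ratio of CBF3 to CBF1 was 0.895 and 0.793 at 40 d against 1.13 and 1.09 in NV, an order noticed after the values were seen and not tested. In their lists the CBF2 peaks ranked between 3369 of 15848 (40 d, replicate 2) and 11237 of 15996 (NV, replicate 2).

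**Figure D5:**
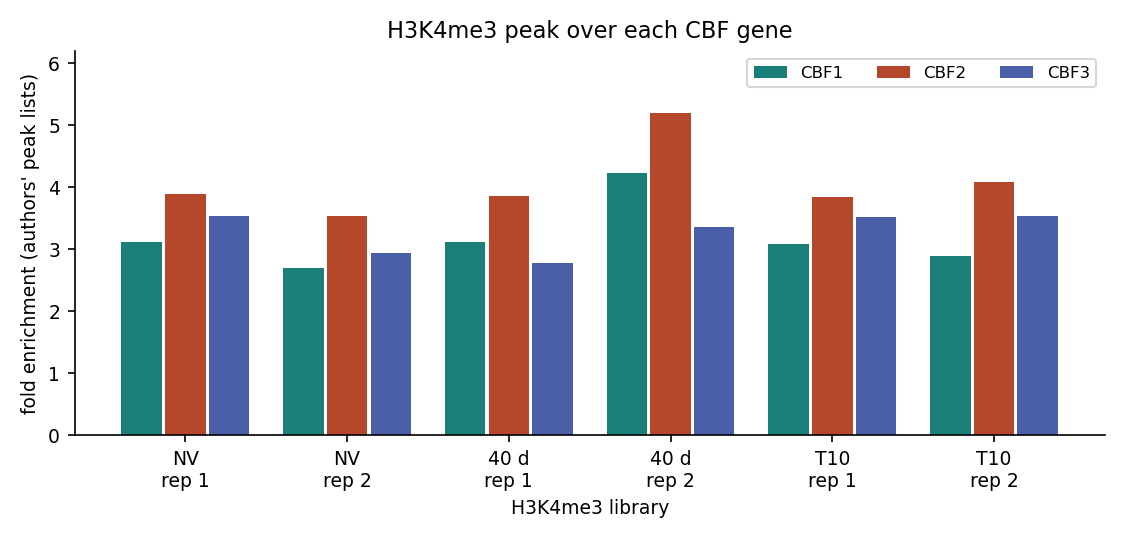
Fold enrichment of the H3K4me3 peak over CBF1, CBF2 and CBF3 in each of the 6 libraries, taken from the authors' peak lists, in the order NV, 40 d and T10. CBF2 is the tallest bar in every library, and CBF3 is below CBF1 in the 40 d libraries only.

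No H3K36me3 peak touched any of the 3 CBF genes in any of the 6 libraries, at 40 d included. By the 50% rule 37.9%, 37% and 33.7% of all coding genes were marked in NV, at 40 d and at T10, and 19.3%, 18.3% and 17.9% of those of the same length range. The neighbours ABCB28 and RS40 both had H3K36me3 and H3K4me3 peaks in every library. In RNA ABCB28 averaged 11.4 normalised counts in NV, 14.2 at 1 h and 21.4 to 26.6 at later times, and RS40 17.0 in NV, 32.3 at 1 h and 29.5 to 48.6 later. Lists of peaks do not give the signal below the caller's threshold, so a weaker signal over the CBF genes was not measured here.

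H3K27me3 was likewise not called over any CBF gene in any library, where 11.8%, 13% and 13.6% of all coding genes were marked in NV, at 40 d and at T10, and 23.7%, 25.3% and 26.2% of those of the same length range. H3K4me3 in all 6 libraries with neither other mark in any was found for 3 of 3 CBF genes and for 3.74% of 27444 coding genes. Among the 706 low genes listed in the RNA table it was 7.93%, and among the 89 of these of CBF length 25.8%. In NV H3K36me3 marked 5.52% of the low genes and 3.37% of those of CBF length, and H3K27me3 13.9% and 12.4%.

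A single H3K27me3 peak fell inside the cluster, at chr4:13020162-13021050 (TAIR10) between CBF3 and CBF1, in NV replicate 1 only. It was 889 bp long, with a fold enrichment of 2.97 and a -log10 q of 21.0, and ranked 3570 of 6971 in its list. It began 761 bp from CBF3 and ended 729 bp from CBF1, and it overlapped the noncoding genes AT4G07395 by 443 bp and AT4G03125 by 791 bp. Of the peaks in that list 65.9% were also found in NV replicate 2, and 98 peaks (1.41%) in none of the other 5 libraries. NV replicate 1 had 6007170 tags and NV replicate 2 had 3415520, while the 40 d and T10 libraries had 3856682 to 15637105.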

How the data were processed

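RNA values were deposited as 1 mean per gene and group of the normalised counts of 2 libraries, without replicate numbers. The submitters' processing notes name TopHat, edgeR, Bowtie2 and MACS2 and the build TAIR10, and the labels describe ribosomal RNA depletion without poly(A) selection and a directional kit. Each deposited value, a normalised signal averaged by the authors, was written as a sum of whole reads times the 2 libraries' scaling steps. Over 99.9% of genes had 1 solution in every group, at a tolerance of 1e-12, and 13 of 18779 genes were left out. Even read numbers made up 53.0% to 63.5% of counts up to 200, so reads may not be independent, and the 3-read limit covers counting error only. Separated reads were tested with limma 3.58.1 (voom, R 4.3.3), with library sizes taken from the authors' scaling, no filter on low counts and all 14 libraries in 1 fit. Genes at a Benjamini-Hochberg adjusted p under 0.05 were called. Both steps were tested on simulated data. Ratios between libraries used log2(value + 0.1) and genes with at least 20 reads in the pair. Replicates are separate samples by their labels only, so p-values measure the spread between these libraries.

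Peaks were called per library with MACS 2.1.1.20160309, per the file headers, which give fold enrichment (a ratio over the local background) and -log10 q-values, and the authors' lists were used as deposited. The counts of tags per library come from the same headers. Gene positions came from RefSeq (TAIR10.1) and were used for overlap only. Shifting the genes of a 3 Mb window gave the best overlap with H3K36me3 peaks at 0 bp.

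Alternatives were other scalings, a minimum of 10 reads in 2 libraries, limma trend fits with pseudocounts of 0.5, 1 and 2, library quality weights, fits of the 4 libraries compared, each library left out, other coverage thresholds, stricter peaks and gene bodies with 500 bp on each side. The 3 genes and all lists were chosen with earlier results of these data known. From each list at most the 3 called genes with the smallest adjusted p in a comparison were named. The exceptions were ERF5, ERD14, FAD8, RAV1, ZAT6 and genes followed across times, which were chosen after their values were seen. So were the 3 genes most like each CBF gene by Pearson's r, among those with a group mean of at least 5. Sequences and promoter motifs are not analysed here.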

Additional observations from a re-analysis of the deposited data

How the results depend on the processing

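No paired analysis was possible because the deposited RNA means carry no replicate numbers and the peak comparisons have no test. Median-of-ratios scaling and the minimum of 10 reads in 2 libraries changed no direction and no call of the 3 genes. Scalings moved the median of all genes by less than 0.1 on the log2 scale.

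All values here are log2 changes. With total reads as library size CBF2 passed at 10 d (5.66) and CBF3 at 20 d (3.38) against NV. Limma trend fits with pseudocounts of 0.5, 1 and 2 called CBF2 at 10 d (4.78, 4.24 and 3.58) and at 20 d (4.13, 3.61 and 2.97) and CBF3 at 20 d (2.30, 1.81 and 1.29), and put CBF1 at 40 d above 0 (0.26, 0.18 and 0.11). With a pseudocount of 1 CBF3 passed at 1 h (2.98). With 0.5, CBF1 passed at 1 d (2.33) and for 40 d against 1 d (-2.07), and the fall of CBF3 for 10 d against 1 d did not pass with 1 (-1.60) or 0.5 (-1.67). Quality weights lost CBF2 at 1 d (6.15) and CBF3 at 10 d (3.80), and called CBF2 (-2.32) and CBF3 (-2.09) for 40 d against 20 d and CBF1 (-4.14) for 40 d against 1 d. With only the 4 libraries compared, calls were gained by CBF1 at 1 d (4.06) and 10 d (3.58), CBF2 at 10 d (5.62) and 20 d (4.96) and CBF3 at 20 d (3.30) against NV. The same fit gained CBF2 (-0.52) for 10 d against 1 d, CBF1 (-1.26) and CBF2 (-0.67) for 20 d against 10 d, and CBF1 (-4.12) for 40 d against 1 d.

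With 1 library left out, changes against NV ran from 3.58 to 6.84 for CBF1, 4.17 to 7.22 for CBF2 and 3.82 to 5.46 for CBF3 at 1 h. At 1 d CBF2 ran from 5.67 to 6.71 (without the deeper and shallower 1 d library 6.37 and 5.91), and at 10 d CBF3 from 3.68 to 3.897 (without the deeper and shallower 10 d library 3.75 and 3.84). At 40 d the ranges were -1.77 to 1.96 for CBF1, 0.79 to 4.86 for CBF2 and -0.29 to 3.15 for CBF3, and at T10 CBF1 ran from -0.93 to 0.062. For T10 against 40 d they were -2.25 to 1.48, -2.85 to 1.22 and -0.91 to 2.54 for CBF1, CBF2 and CBF3, and for 1 d against 1 h -2.78 to 0.48, -1.08 to 1.97 and 0.10 to 1.74. CBF3 ran from -1.87 to -1.65 for 10 d against 1 d (without the deeper and shallower 10 d library -1.80 and -1.72), and CBF2 from -5.35 to -1.28 for 40 d against 1 d (without the deeper and shallower 1 d library -3.68 and -3.21). Directions turned for CBF1 at 40 d without the deeper NV (0.27) or deeper 40 d library (1.96) and at T10 without the deeper NV (0.038) or shallower T10 library (0.062). They also turned for CBF3 at 40 d without the shallower 40 d library (-0.29). For T10 against 40 d they turned without the shallower 40 d library for CBF1 (1.48) and CBF2 (1.22), without the shallower T10 library for CBF1 (0.12) and without the deeper 40 d library for CBF3 (-0.91). For 1 d against 1 h they turned for CBF1 without the shallower (0.48) and for CBF2 without the deeper 1 h library (-1.08), and without these same libraries CBF3 rose (1.74) and CBF1 fell (-2.78). Where no other cause is plain from fewer samples, the cause was not tested.

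With gene bodies extended by 500 bp on each side, mean H3K4me3 coverage of the 3 genes was 45.9% in NV, 50.3% at 40 d and 46.2% at T10. At a threshold of 80% of the gene body, 1 of 3 CBF genes counted as marked in NV, 2 at 40 d and 1 at T10, and 9.6%, 9.65% and 10.4% of all coding genes. H3K36me3 and H3K27me3 stayed at 0 of 3 in every alternative. The T10 libraries, at 15765777 and 3173245 reads, limit what can be said of the 3 CBF genes there, and of CBF1 most.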
